A study of Mus musculus with 8 samples.

Results

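The Toll-like receptor (TLR) genes of the mouse were examined in sorted adipose macrophages. The members were the 10 genes *Tlr1* to *Tlr9* and *Tlr13*, found by symbol among the 54146 genes of the deposited counts, and each of the 10 was present once. Bulk RNA-Seq had been performed on 8 libraries from the epididymal white adipose tissue (eWAT) of 4 C57Bl6 mice, 1 library of FCGR4+ macrophages and 1 of FCGR4- macrophages from each mouse. All 4 mice had been made obese by 24 weeks of free access to a high-fat diet and then underwent short-term caloric restriction (stCR), with 30% less food, for 2 weeks, so that diet and stCR were shared by both populations and there was no library from mice without stCR. Cells had been sorted as CD45+ CD11b+ after removal of T cells, B cells, neutrophils, and eosinophils by their surface markers, and were then divided by FCGR4, an activating receptor for IgG. The comparison asked how FCGR4+ macrophages differ from the FCGR4- cells sorted beside them. How LDL receptor deficiency was brought about in these 4 mice, if it was, is not given in the sources used here.

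TLRs are transmembrane receptors that recognize conserved molecules of microbes and of damaged cells. TLR1, TLR2, TLR4, TLR5, and TLR6 act mainly at the cell surface on lipoproteins, lipopolysaccharide, or flagellin, whereas TLR3, TLR7, TLR8, TLR9, and TLR13 sense nucleic acids in endosomes. Nearly all signal through the adaptor MYD88, TLR3 signals through TICAM1, and TLR4 uses both, leading to NF-κB and interferon regulatory factors and so to cytokine genes. In obese adipose tissue, macrophage TLR4 and TLR2 are best known as receptors implicated in the inflammatory response to fatty acids and lipopolysaccharide.

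The libraries held between 35992794 and 66856746 counts. Levels are given as CPM, counts scaled to library size by TMM, which adjusts for differences in library composition, and 3 counts corresponded to between 0.0440 and 0.0883 CPM. *Fcgr4* itself was at 215, 139, 208, and 236 CPM in the FCGR4+ libraries of mice 1 to 4 and at 48.5, 52.2, 81.1, and 82.9 CPM in the FCGR4- libraries (log2 fold change 1.61, SE 0.173, adjusted P = 0.0162, edgeR). The populations were thus separated for the sorted marker in every mouse, although its RNA was present in FCGR4- cells. Macrophage markers were abundant in both, with summed levels of 29977 to 54542 CPM in FCGR4+ and 22686 to 47784 CPM in FCGR4- libraries, and 10 of 11 had a log2 fold change above 0. Markers of several other cell types had higher summed levels in the FCGR4- libraries. Markers of mast cells and basophils summed to between 398 and 2198 CPM there against 15.6 to 31.9 CPM in FCGR4+, with 11 of 11 tested markers lower and *Mcpt8* at 0 in all FCGR4+ libraries. Neutrophil markers summed to 423, 632, 2771, and 833 CPM in FCGR4- and to 132, 203, 596, and 189 CPM in FCGR4+ libraries, with 11 of 11 tested markers lower, and no neutrophil marker was at 0 in all libraries of a population. In bulk samples, fewer cells of a type and less RNA per cell cannot be told apart. The samples are labelled as 4 mice, and the paired P values set the difference within mice against its variation over these mice.

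All 10 TLR genes passed the filter on low counts (at least 10 counts in at least 4 libraries), and none differed between the populations at an adjusted P value under 0.1 in edgeR (quasi-likelihood test, paired by mouse). Over all 17095 genes tested, 217 passed (1.27%), of which 14 were higher (0.0819%) and 203 lower (1.19%) in FCGR4+ macrophages. At an unadjusted P value under 0.05, 3 of 10 TLR genes differed, *Tlr1*, *Tlr7*, and *Tlr8*, all higher in FCGR4+, beside 9.77% of all tested genes in either direction and 3.1% higher. The same 3 genes were the members higher in FCGR4+ in 4 of 4 mice, beside 8.35% of all genes, and 0 of 10 were lower in 4 of 4, beside 10.4%. DESeq2 with the same pairing also called 0 of 10, beside 5.99% of all genes, with 4 at an unadjusted P value under 0.05, beside 13.4%. With scaling by library size alone, and again without mouse 1, 0 of 10 members were under 0.05 unadjusted.

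**Figure D1:**
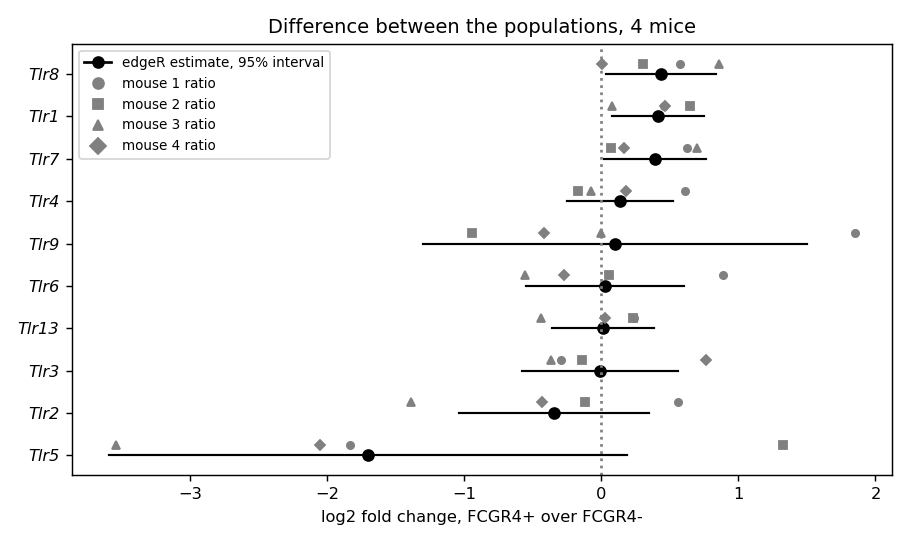
Log2 fold change of each TLR gene, FCGR4+ over FCGR4- (black points, edgeR estimate; black lines, 95% interval), with the ratio of each of the 4 mice as grey symbols above each line. The estimates run from -1.70 for *Tlr5* to 0.44 for *Tlr8*, and the lines of *Tlr1*, *Tlr7*, and *Tlr8* lie to the right of 0 before adjustment for the number of genes tested.

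The intervals show what sizes of difference the 4 pairs could bound. For 7 of 10 members, *Tlr1*, *Tlr3*, *Tlr4*, *Tlr6*, *Tlr7*, *Tlr8*, and *Tlr13*, the whole 95% interval lay within 1 of 0 on the log2 scale. For the other 3, *Tlr2*, *Tlr5*, and *Tlr9*, it reached further, and larger differences in these genes were not bounded by these data.

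Levels can be compared between genes only per length, given here as CPM per kilobase of the annotated gene. In FCGR4+ macrophages, *Tlr13*, which encodes the endosomal receptor for bacterial ribosomal RNA, had the highest mean level, 46.9 ± 8.71 CPM per kilobase (SD, n = 4). It was followed by *Tlr8* (28.4 ± 17.4), *Tlr7* (26.6 ± 7.25), *Tlr2* (24.9 ± 5.44), *Tlr1* (22.8 ± 3.16), and *Tlr4* (16.5 ± 6.70), all in the same unit. *Tlr6* (6.16 ± 0.781), *Tlr3* (1.52 ± 0.635), *Tlr9* (0.313 ± 0.141), and *Tlr5* (0.232 ± 0.166) came last. The ranges of *Tlr13* and *Tlr8* overlapped over libraries, although *Tlr13* was above *Tlr8* in 4 of 4 mice, and the ranges of *Tlr8*, *Tlr7*, *Tlr2*, *Tlr1*, and *Tlr4* overlapped each with the next. Only the steps from *Tlr4* to *Tlr6*, from *Tlr6* to *Tlr3*, and from *Tlr3* to *Tlr9* were free of overlap.

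The order was similar in FCGR4- macrophages. *Tlr13* was again first at 46.1 ± 5.22 CPM per kilobase (SD, n = 4), with *Tlr2* second at 34.4 ± 18.4, where FCGR4+ macrophages had *Tlr8*. Next were *Tlr8* (20.6 ± 11.01), *Tlr7* (20.02 ± 3.47), *Tlr1* (17.2 ± 2.82), *Tlr4* (14.4 ± 2.78), *Tlr6* (6.32 ± 2.30), *Tlr3* (1.58 ± 0.885), *Tlr5* (0.839 ± 0.743), and *Tlr9* (0.290 ± 0.147). The neighbours whose ranges did not overlap were *Tlr4* and *Tlr6*, and *Tlr6* and *Tlr3*. *Tlr13* alone made up 24.6% to 30.5% of the summed level per length of the 10 genes in the FCGR4+ population and 26.2% to 30.7% in the FCGR4- population.

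**Figure D2:**
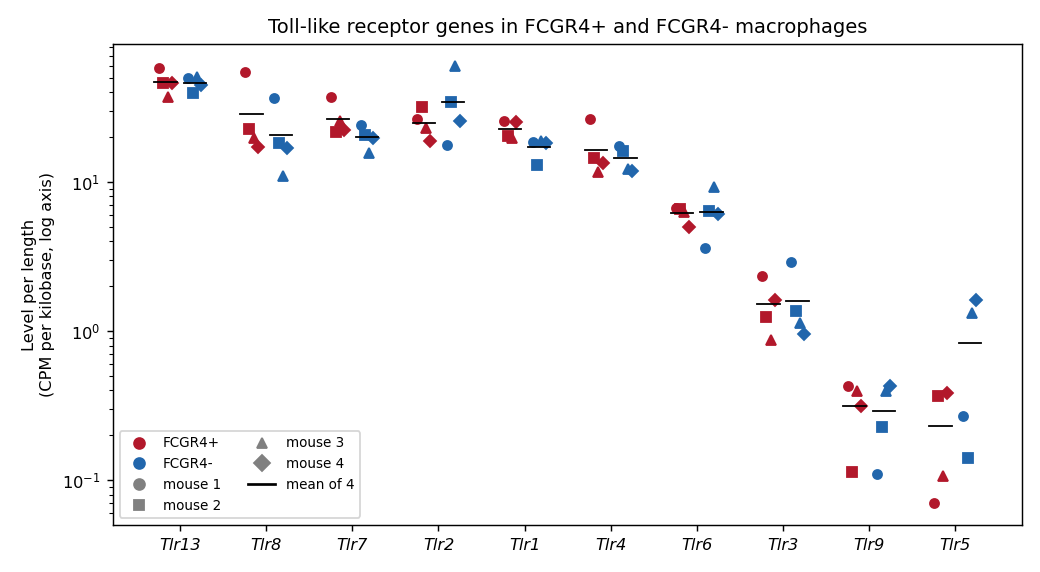
Level per length of the 10 TLR genes (CPM per kilobase, log axis) in the FCGR4+ (red) and FCGR4- (blue) libraries of 4 mice, each mouse with its own symbol and the mean of 4 as a black line. *Tlr13* lies highest, 6 genes lie above 10 CPM per kilobase on average in both populations, and *Tlr9* and *Tlr5* lie lowest in FCGR4+ macrophages.

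Among the cell surface receptors, *Tlr1* (chr5:64924679-64933563, minus strand, mm10) encodes the partner of TLR2 for triacylated lipoproteins. It was at 85.8, 67.9, 66.1, and 84.8 CPM in the FCGR4+ libraries of mice 1 to 4 and at 62.5, 43.3, 62.5, and 61.4 CPM in the FCGR4- libraries. The lowest FCGR4+ library was above the highest FCGR4- library, the only member for which the groups did not overlap, beside 0.883% of all tested genes with that order, 3.02% with the opposite order, and 3.91% in either order. The ratio was smallest in mouse 3. The fold was 1.33 (95% interval, 1.06 to 1.68; log2 fold change 0.41, SE 0.143), and the adjusted P value was 0.391 (edgeR).

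*Tlr6* (chr5:64952031-64960097, minus strand), which encodes the partner of TLR2 for diacylated lipoproteins, lies beside *Tlr1* on the same strand and shares coding sequence with it. It was at 25.04, 24.6, 23.5, and 18.7 CPM in FCGR4+ and at 13.5, 23.7, 34.5, and 22.6 CPM in FCGR4- libraries. The FCGR4+ values lay within the range of the FCGR4- values and were higher in 2 of 4 mice (log2 fold change 0.03, SE 0.244, 95% interval, -0.55 to 0.60; adjusted P = 0.977, edgeR). The sign turned with scaling by library size alone.

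The sequence shared by *Tlr1* and *Tlr6* bears on both counts, since read pairs that mapped to several places were counted at each. Of the 50-base words of the *Tlr1* transcripts, 15.4% occur in other genes, and of those of *Tlr6*, 12.3%, with 454 words common to the pair. The longest identical coding stretch is 229 bases, 9.59% of the *Tlr1* and 9.46% of the *Tlr6* coding sequence. It lies at chr5:64925537-64925765 in *Tlr1* and at chr5:64953828-64954056 in *Tlr6* (mm10, minus strand), and reads 5′ to 3′ as follows.
Tlr1 and Tlr6, shared stretch: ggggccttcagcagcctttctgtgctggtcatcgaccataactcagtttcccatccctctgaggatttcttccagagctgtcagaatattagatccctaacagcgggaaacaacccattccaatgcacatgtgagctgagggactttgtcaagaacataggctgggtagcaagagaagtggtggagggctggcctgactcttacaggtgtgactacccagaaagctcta
The 60 bases just before it (chr5:64925766-64925825 in *Tlr1*, chr5:64954057-64954116 in *Tlr6*) differ at 1 base, the last, shown in capitals.
Tlr1, before the stretch: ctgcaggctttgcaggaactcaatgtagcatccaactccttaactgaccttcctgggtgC
Tlr6, before the stretch: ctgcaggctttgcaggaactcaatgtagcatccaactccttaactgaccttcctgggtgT
A read pair within these stretches could be counted for both genes, so that part of the counts of each may belong to the other. The level per length of *Tlr1* was still 3.82, 3.08, 3.13, and 5.05 times that of *Tlr6* in the FCGR4+ libraries of mice 1 to 4 and 5.14, 2.04, 2.02, and 3.03 times in the FCGR4- libraries.

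*Tlr2* (chr3:83836272-83841767, minus strand) encodes the common subunit of the lipoprotein receptors. Its level was 79.1, 95.6, 69.0, and 56.9 CPM in FCGR4+ and 53.6, 104, 181, and 76.9 CPM in FCGR4- libraries. The groups overlapped, mouse 1 had the higher value in FCGR4+ and the other 3 mice in FCGR4-, and the FCGR4- library of mouse 3 stood highest. The log2 fold change was -0.34 (SE 0.294; 95% interval, -1.04 to 0.35; adjusted P = 0.698, edgeR). In that library of mouse 3, *Tlr6* and *Cd14*, the lipopolysaccharide co-receptor (1913 CPM), were also at their highest of the 8 libraries, as were the summed markers of neutrophils (2771 CPM) and of classical monocytes (6569 CPM, beside 960 to 3961 CPM in the other 7). The part of these cells in the *Tlr2* value was not tested. Leaving out mouse 3 gave a log2 fold change near 0, the upper end of the range from -0.64 to -0.01 over the mice left out.

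The balance of *Tlr2* and its partner *Tlr1* varied with it. *Tlr2* was at 1.02, 1.56, 1.16, and 0.75 times the level per length of *Tlr1* in FCGR4+ libraries and at 0.95, 2.66, 3.21, and 1.39 times in FCGR4- libraries of mice 1 to 4. The ratio was lower in FCGR4+ in mice 2, 3, and 4 and not in mouse 1.

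*Tlr4* (chr4:66827584-66930284, plus strand) encodes the lipopolysaccharide receptor. It was at 147, 80.2, 65.0, and 74.2 CPM in FCGR4+ and at 96.1, 90.2, 68.3, and 65.3 CPM in FCGR4- libraries. The groups overlapped, and the value was higher in FCGR4+ in mice 1 and 4 (log2 fold change 0.14, SE 0.165, 95% interval, -0.25 to 0.53; adjusted P = 0.778, edgeR). Both libraries of mice 1 and 2 were above both libraries of mice 3 and 4, with 80.2 to 147 CPM beside 65.0 to 74.2 CPM.

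*Tlr5* (chr1:182954788-182976044, plus strand), which encodes the flagellin receptor, was the member with the widest spread. It was at 0.337, 1.75, 0.511, and 1.85 CPM in FCGR4+ libraries, from 20, 84, 32, and 89 counts, and at 1.29, 0.677, 6.34, and 7.77 CPM in FCGR4- libraries, from 84, 23, 351, and 530 counts. FCGR4- macrophages of mice 3 and 4 stood above all other libraries, and mouse 2 had the opposite order to the other 3 mice. The log2 fold change was -1.70 (SE 0.802; 95% interval, -3.59 to 0.19), and the adjusted P value was 0.543 (edgeR). With no filter on low counts, when 38021 genes were tested, the adjusted P value was 0.0919 and *Tlr5* was called lower.

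**Figure D3:**
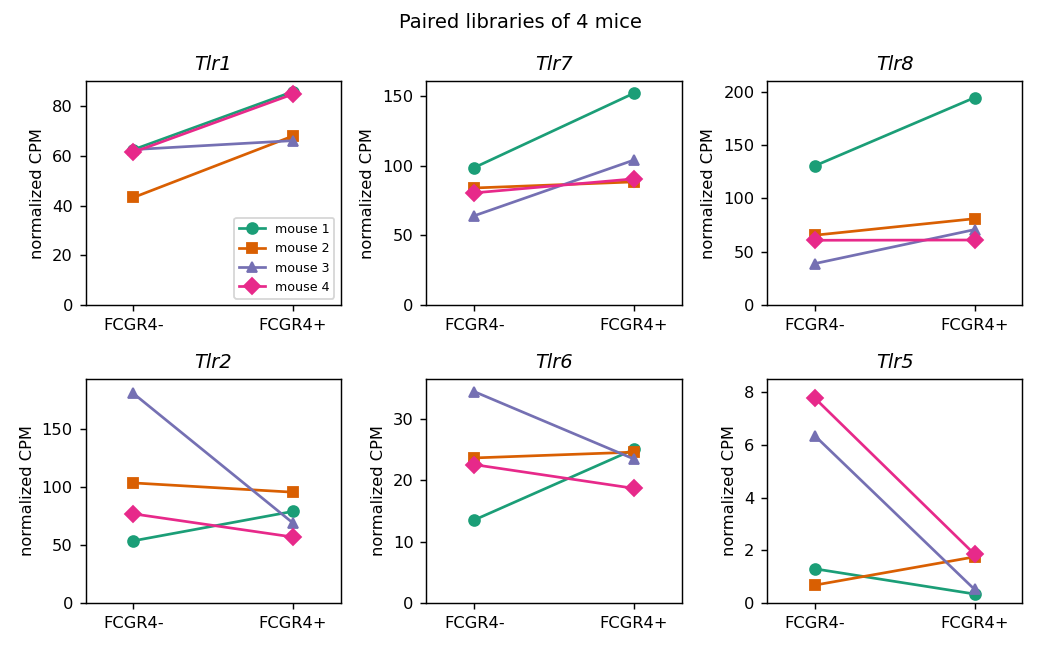
Normalized CPM of 6 TLR genes in FCGR4- and FCGR4+ macrophages, with the paired libraries of each of 4 mice joined by a line and every axis starting at 0. The lines of *Tlr1*, *Tlr7*, and *Tlr8* go up from FCGR4- to FCGR4+ in every mouse, whereas those of *Tlr2*, *Tlr6*, and *Tlr5* go both ways.

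Among the endosomal receptors, *Tlr7* (chrX:167304929-167330558, minus strand) encodes a receptor for single-stranded RNA. Its level was 152, 88.3, 104, and 90.4 CPM in FCGR4+ and 98.5, 83.9, 64.0, and 80.4 CPM in FCGR4- libraries. It was higher in FCGR4+ in 4 of 4 mice, by little in mice 2 and 4, and the groups overlapped. The fold was 1.31 (95% interval, 1.01 to 1.70; log2 fold change 0.39, SE 0.158), with an adjusted P value of 0.488 (edgeR).

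*Tlr8* (chrX:167242696-167264329, minus strand), the neighbour of *Tlr7* on the X chromosome and a related RNA sensor, was at 194, 81.0, 70.8, and 61.1 CPM in FCGR4+ and at 131, 65.6, 39.0, and 60.8 CPM in FCGR4- libraries. It was higher in FCGR4+ in 4 of 4 mice, but the values of mouse 4 were nearly equal. Both libraries of mouse 1 were above all libraries of the other mice, so the groups overlapped. The fold was 1.35 (95% interval, 1.03 to 1.78; log2 fold change 0.44, SE 0.169), with an adjusted P value of 0.466 (edgeR).

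*Tlr13* (chrX:106143204-106160493, plus strand) was at 252, 198, 161, and 197 CPM in FCGR4+ and at 214, 169, 218, and 193 CPM in FCGR4- libraries. The groups overlapped, and mouse 3 had the opposite order to the other 3 mice. This most abundant member had an estimate close to 0 and one of the narrower intervals (log2 fold change 0.01, SE 0.158, 95% interval, -0.36 to 0.39; adjusted P = 0.981, edgeR). Its sign was negative with scaling by library size alone.

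*Tlr3* (chr8:45395665-45411080, minus strand) encodes the receptor for double-stranded RNA. It was at 12.3, 6.45, 4.55, and 8.47 CPM in FCGR4+ and at 15.0, 7.09, 5.87, and 4.97 CPM in FCGR4- libraries. The groups overlapped, and only mouse 4 had the higher value in FCGR4+ (log2 fold change -0.01, SE 0.242, 95% interval, -0.58 to 0.56; adjusted P = 0.992, edgeR). Of its exon bases, 7.32% overlap *Gm45542* on the opposite strand, and since counting did not use strand, read pairs there cannot be given to one gene.

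*Tlr9* (chr9:106222598-106226883, plus strand), which encodes the receptor for unmethylated CpG DNA, was near the lower end of what was measured. It was at 1.48, 0.395, 1.37, and 1.10 CPM in FCGR4+ and at 0.385, 0.795, 1.37, and 1.48 CPM in FCGR4- libraries, from 19 to 101 counts a library. Mice 1 and 2 had opposite orders, and the groups covered nearly the same range (fold 1.07, with a 95% interval of 0.407 to 2.83, and adjusted P = 0.959, edgeR). Plasmacytoid dendritic cells are known for high *Tlr7* and *Tlr9*, and their markers summed to 109, 123, 264, and 308 CPM in FCGR4+ and to 107, 110, 172, and 195 CPM in FCGR4- libraries, although 5 of 9 tested markers had a log2 fold change below 0. The sort required CD11b and removed cells with B220, which plasmacytoid dendritic cells carry, and how completely it removed them was not tested. Most of the sums was *Bst2* and *Tcf4*, which macrophages also express. *Siglech* was at 0 to 0.623 CPM in FCGR4+ and at 0.0883 to 1.08 CPM in FCGR4- libraries. The part of plasmacytoid dendritic cells in the *Tlr7* and *Tlr9* values was not tested.

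The summed level per length of the 5 endosomal genes was 153, 91.7, 83.8, and 86.9 CPM per kilobase in FCGR4+ libraries of mice 1 to 4 and 113, 79.7, 78.8, and 83.0 CPM per kilobase in FCGR4- libraries, higher in FCGR4+ in each mouse but overlapping. The endosomal genes made up 64.2%, 55.5%, 58.0%, and 58.0% of the summed level of the 10 genes in FCGR4+ and 66.3%, 53.2%, 43.7%, and 56.7% in FCGR4- libraries. The share was thus close in both populations except in mouse 3, whose FCGR4- library had the high *Tlr2* level.

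The sum of squares of the log2 level over the 8 libraries was divided into the part between mice, the part between populations, and the rest. These parts have 3, 1, and 3 degrees of freedom. With no difference of either kind, the part between mice would therefore still be expected to exceed that between populations. The raw share between mice was the larger of these for all members but *Tlr1*, which alone does not show larger differences between mice. For *Tlr3*, *Tlr8*, and *Tlr4*, 84.0%, 84.0%, and 79.8% lay between mice, and 0.0033%, 10.5%, and 3.51% between populations. *Tlr1* was the member with the largest part between populations (51.1%, with 36.0% between mice), followed by *Tlr7* (34.2% and 49.1%) and *Tlr5* (26.6% and 37.5%). Over all tested genes, the medians were 57.0% between mice and 9.49% between populations. Mouse 1 had the highest mean of its 2 libraries for *Tlr1*, *Tlr3*, *Tlr4*, *Tlr7*, *Tlr8*, and *Tlr13*, and the highest mouse was 2.96 times the lowest for *Tlr8*, 2.62 times for *Tlr3*, and 1.27 times for *Tlr13*.

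**Figure D4:**
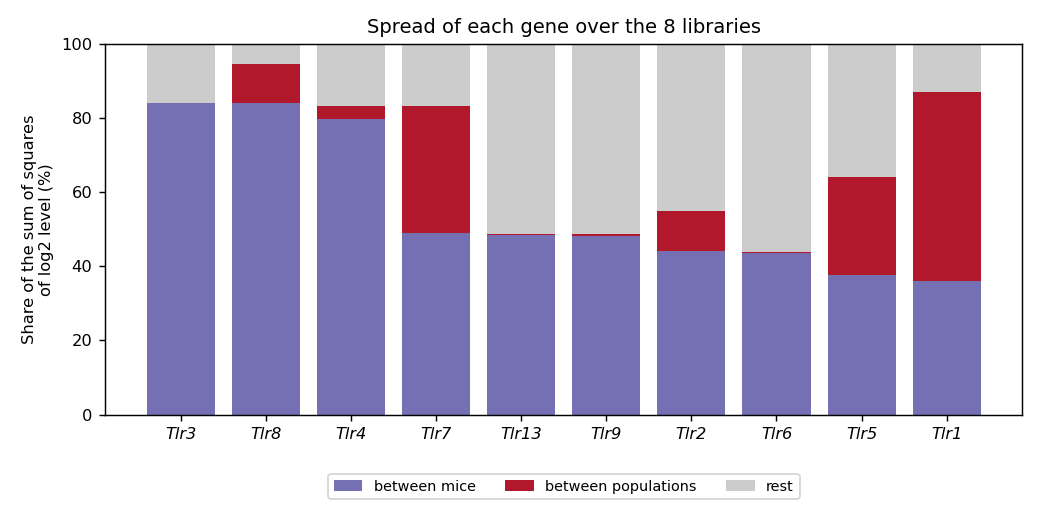
Share of the sum of squares of the log2 level over 8 libraries that lay between the 4 mice, between the 2 populations, and in the rest, for each TLR gene, ordered by the share between mice. *Tlr3* and *Tlr8* have 84.0% between mice, whereas *Tlr1* has 51.1% between populations. The 3 parts have unequal degrees of freedom (3, 1, and 3), so the shares are not on the same scale.

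The animal IDs in the labels begin in one way for mice 1 and 2 and in another for mice 3 and 4, and what the prefix stands for is not stated. Within mice 1 and 2 alone, the log2 fold change of *Tlr5* was -0.28 (adjusted P = 0.999, edgeR), and within mice 3 and 4 alone it was -2.84 (adjusted P = 0.139, edgeR). *Tlr2* had 0.22 and -0.93, and *Tlr6* had 0.47 and -0.43, in the same order, each on the log2 scale. *Tlr1*, *Tlr7*, and *Tlr8* stayed above 0 within both pairs of mice and under the other settings tried, and the difference between the pairs was not tested. Some genes downstream of the receptors differed in level between these pairs of mice. *Irf7*, a transcription factor of the interferon response, was at 22.1 to 79.1 CPM in the 4 libraries of mice 1 and 2 and at 412 to 739 CPM in those of mice 3 and 4, and *Ccl2*, a monocyte chemokine, was at 30.8, 24.8, 559, and 843 CPM in the FCGR4+ libraries of mice 1 to 4. Among the 9 listed markers of classical monocytes, *Ly6c2* and *Plac8* differed in the same way. *Ly6c2* was at 10.4 to 34.6 CPM in mice 1 and 2 and at 314 to 458 CPM in mice 3 and 4. *Plac8* was at 6.03 to 39.5 and 301 to 544 CPM in the same order. The sums over the 9 markers overlapped between the pairs. They were 960 to 3403 CPM in mice 1 and 2 and 3269 to 6569 CPM in mice 3 and 4. The part of monocytes was not tested. *Irf7*, *Ccl2*, *Ly6c2*, and *Plac8* were chosen after their values were seen. Of the 10 members, only *Tlr4* had ranges that did not overlap between these pairs of mice, higher in mice 1 and 2, beside 16.4% of all tested genes without overlap in either direction.

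The other genes of the pathway were described by the step at which they act. Besides the members, 100 of 101 listed genes were tested, and edgeR called 0 higher and 2 lower (2%, beside 1.19% of all tested genes) in FCGR4+, *Il1rl1* and *Il1b*. DESeq2 with the same pairing called 5 higher and 6 lower, beside 1.12% and 4.87% of all tested genes, and edgeR's newer quasi-likelihood method 3 and 4, beside 0.333% and 3.35%. The median log2 fold change of the 100 was -0.08, beside 0.00 for all tested genes. At an unadjusted P value under 0.05, edgeR gave 11 higher and 7 lower, 18% together, beside 9.77% of all tested genes.

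The receptors *Tlr11* and *Tlr12*, for profilin of parasites, were at most at 2.16 CPM in any library and were not called (log2 fold changes -1.86 and 1.06; adjusted P = 0.622 and 0.495, edgeR). Of the 9 genes for ligand binding and co-receptors, 5 had a log2 fold change above 0. The pair that forms the CD180 complex, a TLR4-like receptor of the cell surface, had the highest values. *Ly86* was at 405, 273, 504, and 417 CPM in FCGR4+ and at 296, 180, 238, and 280 CPM in FCGR4- libraries, with a log2 fold change of 0.68 (SE 0.150, adjusted P = 0.149, edgeR, and 0.00148, DESeq2), and *Cd180* had 0.52 (SE 0.179, adjusted P = 0.393, edgeR). Both were higher in FCGR4+ in 4 of 4 mice. At the other end stood *Vtn*, which encodes vitronectin, and *Lbp*, the lipopolysaccharide binding protein, with log2 fold changes of -1.81 and -0.61. *Vtn* was lower in 4 of 4 mice, at no more than 2.29 CPM in any library, with an adjusted P value of 0.227 by edgeR, 0.0285 by DESeq2, and 0.0654 by edgeR's newer quasi-likelihood method. *Ly96*, the coreceptor of TLR4, had 0.21 (SE 0.223) and *Cd14* had -0.42 (SE 0.236).

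Of the 16 genes that fold, move, and cleave the endosomal receptors or prepare their ligands, 15 had a log2 fold change above 0 (93.8%, beside 49.7% of all tested genes), with a median of 0.19. By mouse, 13, 11, 10, and 13 of the 16 were higher in FCGR4+ in mice 1 to 4. Only 4 of the 16 were higher in 4 of 4 mice (25%, beside 8.35% of all tested genes). edgeR called none of them, and DESeq2 called *Ctss* higher. The highest was *Ctss*, which encodes the protease cathepsin S, at 5174, 9455, 6657, and 5353 CPM in FCGR4+ and at 3318, 8547, 3211, and 3172 CPM in FCGR4- libraries (log2 fold change 0.65, SE 0.168, adjusted P = 0.215, edgeR, and 0.00955, DESeq2). It was higher in FCGR4+ in each mouse, and the groups overlapped through mouse 2. *Ctsl*, for cathepsin L, had 0.53 (SE 0.235, adjusted P = 0.520, edgeR). The transporter *Unc93b1* had 0.13 (SE 0.142), and the chaperones *Hsp90b1* and *Cnpy3* were lowest with 0.03 and 0.00. In the same comparison, the median over the macrophage markers was 0.55 on the log2 scale, and their part in these values was not tested.

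The direction of the pathway genes, taken over all lists, differed between mice. In mouse 1, 81 of the 100 genes were higher in FCGR4+ (beside 52.5% of all tested genes), and in mouse 2, 49 (49.5%). In mouse 3, 29 were higher (47.4%), and in mouse 4, 39 (49.4%). The median over all 100 genes thus averages mice of opposite direction. The list of endosomal trafficking and processing instead had a median above 0 in each mouse (0.16, 0.15, 0.13, and 0.16). The 10 members had 8, 6, 4, and 6 higher in mice 1 to 4. The difference between mice has no replicate, and it was not tested.

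The signaling genes had medians below 0, and their ratios were lowest in mice 3 and 4. Of 6 adaptors, 5 were tested (*Sarm1* had too few counts), and *Myd88* had a log2 fold change of 0.01 (SE 0.167; 95% interval, -0.39 to 0.40) and *Ticam1* 0.13 (SE 0.211), whereas *Tirap* and *Pik3ap1* were lowest with -0.23 and -0.16. All 5 were higher in FCGR4+ in mice 1 and 2, whereas 0 were in mouse 3 and 1 in mouse 4. Among 18 kinases and ubiquitin ligases (median -0.12, with 5 above 0, or 27.8%, and with 16, 7, 5, and 6 above 0 in mice 1 to 4), *Traf3* and *Traf6* were lowest with -0.63 and -0.56, and *Tab2* and *Map3k8* highest with 0.37 and 0.22. Among 10 transcription factors (median -0.13, with 1 above 0), 9 were higher in FCGR4+ in mouse 1 and 9 in mouse 2, but 0 in mouse 3 and 1 in mouse 4. *Irf7* had 0.48 (SE 0.240, adjusted P = 0.563, edgeR), *Irf8* -0.03, *Nfkb2* -0.28, and *Relb* -0.33. None of these genes was called by edgeR or DESeq2.

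The 16 negative regulators had a median log2 fold change of -0.20, with 2 of 16 above 0 (12.5%), and edgeR called 1. In mouse 1, 13 of them were higher in FCGR4+, in mouse 2, 6, in mouse 3, 1, and in mouse 4, 2. *Il1rl1*, which encodes the IL-33 receptor ST2, a TIR domain protein found on mast cells and type 2 lymphoid cells among others, was lower in FCGR4+ libraries at 9.95, 3.91, 3.45, and 4.88 CPM than in FCGR4- libraries at 30.6, 15.1, 10.3, and 10.4 CPM. The groups did not overlap (log2 fold change -1.56, SE 0.198, adjusted P = 0.0300, edgeR). The call was lost without mouse 1 (adjusted P = 0.126) or mouse 2 (adjusted P = 0.109) by the same edgeR test. The mast cell and basophil markers given above differed in the same direction, as did those of T and NK cells, with 11 of 11 tested markers lower and sums of 2.93 to 14.4 CPM in FCGR4+ and 20.1 to 78.0 CPM in FCGR4- libraries. Their part was not tested. *Sigirr*, a TIR domain receptor that restrains TLR signaling, had -2.57 (SE 0.994, adjusted P = 0.466, edgeR, and 0.0373, DESeq2), from 0 to 1.38 CPM in FCGR4+ and 3.50 to 5.30 CPM in FCGR4- libraries. It had 0 counts in FCGR4+ of mouse 3, and without that mouse its log2 fold change was -1.71. *Cyld* and *Cd300a* had 0.07 and 0.05.

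Of 24 target genes, edgeR called 1. *Il1b*, the gene of interleukin-1β, was lower in FCGR4+ at 38.4, 29.7, 174, and 62.3 CPM than in FCGR4- macrophages at 59.5, 82.9, 725, and 296 CPM. It was lower in each mouse, and the groups overlapped because the mice differed in level (log2 fold change -1.61, SE 0.274; adjusted P = 0.0666, edgeR). The call was lost in the edgeR test without mouse 2 (adjusted P = 0.174), mouse 3 (adjusted P = 0.122), or mouse 4 (adjusted P = 0.198). Neutrophils and monocytes carry much *Il1b*, and the summed neutrophil markers were lower in FCGR4+ in each mouse too. The summed markers of classical monocytes were lower in mice 2, 3, and 4 but not in mouse 1 (1186 CPM in FCGR4+ and 960 CPM in FCGR4-). The part of these cells in the difference was not tested.

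edgeR called none of the remaining target genes, and 6 of the 24 had a log2 fold change above 0 (25%). By mouse, 17, 6, 7, and 9 of the 24 were higher in FCGR4+ in mice 1 to 4. DESeq2 called *Il10*, *Saa3*, and *Marco* higher and *Il12a* and *Cd80* lower (adjusted P = 0.000829, 0.0357, and 0.0338 for those higher), and edgeR's newer quasi-likelihood method called *Il10* and *Marco* (adjusted P = 0.0511 and 0.0840). *Il12a* and *Il12b*, for the subunits of IL-12, were lowest with log2 fold changes of -3.37 (SE 1.82) and -2.27 (SE 0.884), at no more than 0.228 CPM in any FCGR4+ library. Markers of conventional dendritic cells other than type 1, cells known for IL-12, were lower too, with 9 of 9 tested markers below 0 and sums of 58.9 to 95.2 CPM in FCGR4+ and 134 to 210 CPM in FCGR4- libraries. For type 1 cells, also known for IL-12, 7 of 9 markers were below 0, whereas the sums were higher in FCGR4+ in mice 1, 3, and 4, at 163 to 478 CPM beside 189 to 418 CPM. The part of these cells was not tested. *Marco*, a scavenger receptor, and *Saa3*, an acute phase gene, were highest with 2.76 (SE 1.03) and 1.09 (SE 0.406). *Marco* had 21, 29, 31, and 0 counts in the FCGR4- libraries of mice 1 to 4, and its log2 fold change was 1.90 without mouse 4. That of *Saa3* was 0.57 without mouse 1. *Saa3* was at 236, 347, 297, and 251 CPM in FCGR4+ and at 33.8, 221, 260, and 138 CPM in FCGR4- libraries. *Il10*, an anti-inflammatory cytokine, was higher in FCGR4+ in 4 of 4 mice, at 58.9, 30.6, 79.6, and 85.7 CPM beside 41.7, 11.7, 31.2, and 57.0 CPM (log2 fold change 0.95, SE 0.199, adjusted P = 0.126, edgeR). *Tnf* had -0.31 (SE 0.218) and *Il6* -0.16 (SE 0.532). *Tnf* and *Saa3*, like most genes of this list, are also controlled by other receptors.

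**Figure D5:**
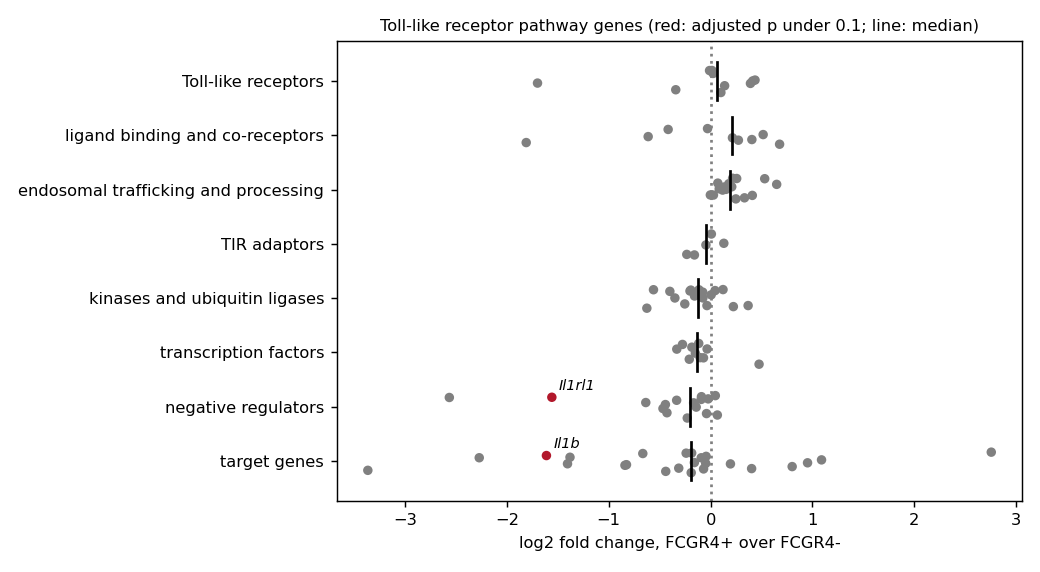
Log2 fold change, FCGR4+ over FCGR4-, of the tested TLR pathway genes by step (*Tlr11* and *Tlr12* not drawn), 1 point a gene, with the median of each list as a black line and genes at an adjusted P value under 0.1 in red. The red points are *Il1rl1* and *Il1b*, and 15 of the 16 genes of endosomal trafficking and processing lie above 0.

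The genes whose profiles over the 8 libraries were most like those of the 2 most variable members were found by the root mean square difference of log2 levels, each centred on its own mean. For *Tlr5* (SD of the log2 level 1.58), they were *Ccn4* (0.534), *Ptprf* (0.630), and *Minar2* (0.642). *Ccn4* was at 0.0337 to 0.312 CPM in FCGR4+ and at 0.294 to 1.23 CPM in FCGR4- libraries, with the opposite order in mouse 2, as *Tlr5* had. For *Tlr9* (SD 0.787), they were *Gm11772* (0.299), *Gm8202* (0.335), and *Gk* (0.342). Likeness was measured over 8 libraries that share mice. Counting error contributes to it at the low counts of *Tlr5*, *Tlr9*, and the genes named, apart from *Gk* (617 to 2104 counts a library).

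Promoter sequences from RefSeq (GRCm38.p6, the same build) were matched by symbol for 8 of the 10 members, and not for *Tlr4* and *Tlr7*. They were searched on both strands for GAGGAAG, the core bound by the myeloid ETS factor encoded by *Spi1*, for GAAA repeated after a gap of 2 bases, bound by interferon regulatory factors, and for TGANTCA, bound by AP-1. Of 32851 promoter windows of 300 bases, 13.6%, 3.44%, and 7.81% held them. GAGGAAG was found in windows of *Tlr1*, *Tlr9*, and *Tlr13*, the GAAA repeat in 1 of the windows of *Tlr6*, TGANTCA in that of *Tlr9*, and none of the 3 in those of *Tlr2*, *Tlr3*, *Tlr5*, and *Tlr8*. The part of the window before the gene as the deposited annotation gives it is shown for *Tlr13*, the member with the highest level (179 bases, chrX:106143025-106143203, plus strand), and for *Tlr9*, one of the lowest (250 bases, chr9:106222348-106222597, plus strand), with matches in capitals.
Tlr13: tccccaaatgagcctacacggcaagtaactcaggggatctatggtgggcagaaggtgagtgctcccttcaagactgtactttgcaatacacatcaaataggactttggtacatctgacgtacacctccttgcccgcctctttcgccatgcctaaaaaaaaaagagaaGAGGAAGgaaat
Tlr9: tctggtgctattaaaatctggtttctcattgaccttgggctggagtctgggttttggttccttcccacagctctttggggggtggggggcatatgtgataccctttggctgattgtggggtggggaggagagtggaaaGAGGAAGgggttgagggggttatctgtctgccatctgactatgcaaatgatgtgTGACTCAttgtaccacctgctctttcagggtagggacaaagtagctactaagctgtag
Both hold GAGGAAG, and the level per length of *Tlr13* was far above that of *Tlr9* in every library. A match is a description of the letters and shows nothing about binding in these cells.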

How the data were processed

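RNA of sorted eWAT macrophages was sequenced by the authors, mapped to mm10 with STAR, and counted with featureCounts 1.6.3 on GENCODE M18. The deposited values are raw counts of read pairs per gene. Per the file headers, multimapping pairs were counted at every place, without regard to strand. All 8 count columns were used (0 left out). Samples were grouped by population and mouse from the labels. Libraries of the same mouse come from the same animal, and their deviations correlated (r 0.291 to 0.428; at most 0.0116 between mice). Taking deviations from a mean itself lowers r between mice, so those values are no independent comparison.

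Counts were normalized by TMM (factors 0.937 to 1.11) and tested with edgeR 4.0.16 (R 4.3.3), quasi-likelihood, mouse as block, Benjamini-Hochberg adjustment, threshold 0.1, on 17095 genes (10 or more counts in 4 or more libraries). SE is the log2 fold change over the root of F. Alternatives included DESeq2 1.42.0. The fit was also run on simulated counts, and the outcome of that run is not given here. Log2 levels used a prior count of 2. Shared words came from GENCODE M21 transcripts, a later release on the same build. Members, pathway and marker lists were chosen with earlier results of these data known. Named are all members, called pathway genes, the 2 highest and 2 lowest of each list, genes most like *Tlr5* and *Tlr9*, and a few genes of known role (such as *Myd88*, *Cd14*, *Ly96*, *Unc93b1*, *Ticam1*, *Tnf*, *Il6*, *Il10*, and *Ccl2*) chosen after their values were seen.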

Additional observations from a re-analysis of the deposited data

Results flagged for a closer look

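In 2 of 33 groups of 4 values examined, 1 library stood far from the other 3 relative to the group's range, where chance gives about 1 in 20 groups, or 1.65. *Tlr8* in FCGR4+ macrophages of mouse 1 was at 194 CPM, beside 61.1 to 81.0 CPM in the other mice (the gap was 0.850 of the range). The FCGR4- library of the same mouse was also the highest of its group for *Tlr8*, at 131 CPM. *Tlr1* in FCGR4- macrophages of mouse 2 was at 43.3 CPM, beside 61.4 to 62.5 CPM (the gap was 0.945 of the range). That library had the fewest counts, 35992794, and without mouse 2 the log2 fold change of *Tlr1* stayed above 0.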

How the results depend on the processing

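The log2 fold changes of *Tlr1*, *Tlr7*, and *Tlr8* stayed above 0 in 13 of 13 refits (0.25 to 0.55, 0.28 to 0.53, and 0.28 to 0.58; adjusted P from 0.169 to 0.967). The counts of calls depended on the tool, and the cause was not tested. Called genes higher in FCGR4+ numbered 14, but 1 without the replicate block, 192 with DESeq2, 57 with edgeR's newer quasi-likelihood method, 8 with library size alone, 159 with no filter, 7 in mice 1 and 2 alone, 2 at a threshold of 0.05, and 2 to 9 with a mouse left out. Those lower numbered 203, but 47 without the block, 832 with DESeq2, 572 with the newer method, 895 with no filter, 108 and 61 in each pair of mice alone, 74 at 0.05, and 76 to 153 with a mouse left out. *Tlr5* was the 1 TLR gene called, with no filter, a setting that moved the median of all genes to -0.16. Pathway genes called higher numbered 0, but 5 with DESeq2 or no filter (*Ctss*, *Il10*, *Ly86*, *Marco*, and *Saa3*), 3 with the newer method, and 1 (*Il10*) with at least 10 counts in all libraries. Those lower numbered 2, but 0 without the replicate block (which called no TLR gene either), 6 with DESeq2 or no filter, 4 with the newer method, 1 in each pair of mice or at 0.05, and 0 to 2 with a mouse left out. The sign turned for *Tlr2* in mice 1 and 2 alone (0.22), *Tlr3* with no filter (0.0093) and in mice 3 and 4 (0.18), *Tlr6* without the block (-0.037), with library size alone (-0.064), and in mice 3 and 4 (-0.43), *Tlr9* in mice 3 and 4 (-0.23), and *Tlr13* with library size alone (-0.075), at least 10 counts in all libraries (-0.0027), and in mice 3 and 4 (-0.23). With a mouse left out, values ran from -0.26 to 0.10 for *Tlr3*, -0.019 to 0.27 for *Tlr4*, -0.26 to 0.21 for *Tlr6*, -0.46 to 0.50 for *Tlr9*, and -0.061 to 0.15 for *Tlr13*. At 19 to 101 counts for *Tlr9* and 20 to 530 for *Tlr5*, counting error and few mice limit both.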
